A study of Danio rerio with 6 samples.

Results

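Connexins are the membrane proteins that build gap junctions in vertebrates. Their genes were chosen here by name, as the entries whose name begins with cx and a digit or with gja, gjb, gjc, gjd or gje and a digit, in upper or lower case. The rule found 36 genes among the 29126 gene names kept from the deposited table. They were measured in RNA from zebrafish cells of the genotype Tg(fli1:EGFP), a transgenic line in which the promoter of fli1, a gene active in endothelium, blood vessel precursors and part of the neural crest, drives green fluorescent protein. Every library came from this genotype, and the libraries fall into 3 populations: Fli1- cells, Low-Fli1+ cells and High-Fli1+ cells, with 2 libraries each. The age of the fish and the way the cells were separated are not given in the sources used here. The labels also do not say whether the 2 libraries of a population came from separate animals, so the p-values measure the spread between these libraries, which may be technical.

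A connexin crosses the membrane several times. Connexins assemble into a ring called a connexon, and connexons of neighbouring cells dock to form a channel that passes ions and small molecules. Families are named alpha to epsilon, and in the zebrafish they serve cells as unlike as cartilage and bone, pigment cells, heart muscle, lens fibres and electrically coupled neurons. In blood vessels, gap junctions couple endothelial cells to each other and to the cells around them.

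Values are FPKM, fragments per kilobase of transcript scaled to the number of mapped fragments, which correct for transcript length, so levels of different genes can be set side by side. FPKM give no counts, so the depth behind a value is unknown and a gene is said only to be listed at 0. The lower end of the values differed between populations. Of the values above 0, 95% were higher than 0.281 and 0.277 FPKM in the Fli1- libraries, 0.915 and 0.660 in the Low-Fli1+ libraries and 0.330 and 0.267 in the High-Fli1+ libraries. The transgene's own gene followed the labels: fli1a had 1.04 and 5.55 FPKM in the Fli1- libraries, 66.8 and 52.0 in the Low-Fli1+ pair and 241 and 192 in the High-Fli1+ pair. The 8 endothelial markers summed to 10.3 and 7.69 FPKM in the Fli1- libraries, 14.3 and 16.2 in the Low-Fli1+ pair and 106 and 123 in the High-Fli1+ pair. The 5 cartilage markers found in the table were far higher, at 118 and 159, 1068 and 1072, and 10608 and 8778 FPKM in the same order, so the High-Fli1+ libraries held much cartilage RNA beside endothelial RNA.

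Connexin RNA, summed over the 36 genes of the name rule, was dominated by 3 genes. cx43, cx43.4 and the entry named GJD2 (1 of many) together held between 75.7% and 86.2% of the summed connexin FPKM of a library. The sum itself was 160 and 171 FPKM in the Fli1- libraries, 179 and 222 in the Low-Fli1+ pair and 170 and 129 in the High-Fli1+ pair. Both Low-Fli1+ sums lay above the 4 others, and the Fli1- and High-Fli1+ sums overlapped. FPKM over all genes differed between libraries, from 430723 to 712585. Of that total, connexins held 0.0291% and 0.0280% in the Fli1- libraries, 0.0415% and 0.0409% in the Low-Fli1+ pair and 0.0378% and 0.0181% in the High-Fli1+ pair. GJD2 (1 of many) held 28.83% and 19.80% of the connexin sum in the Fli1- libraries, 35.8% and 9.32% in the Low-Fli1+ pair and 0.979% and 0.253% in the High-Fli1+ pair. cx43 and cx43.4 together held 46.8% and 58.6%, then 48.3% and 75.5%, then 85.1% and 85.9%, so the highest shares were in the High-Fli1+ libraries. The other 33 connexins summed to 39.0 and 36.8 FPKM in the Fli1- libraries, 28.4 and 33.6 in the Low-Fli1+ pair and 23.7 and 17.8 in the High-Fli1+ pair. These shares are descriptions and were not tested. The sums and shares leave out zgc:194261 (gjd1a in RefSeq), a delta connexin that the name rule missed. It had 23.7 and 21.7 FPKM in the Fli1- libraries, 28.84 and 16.61 in the Low-Fli1+ pair and 5.06 and 0.202 in the High-Fli1+ pair. The Fli1- and High-Fli1+ sums overlap only without this gene, and the shares of the connexin sum above would be smaller with it.

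**Figure D1:**
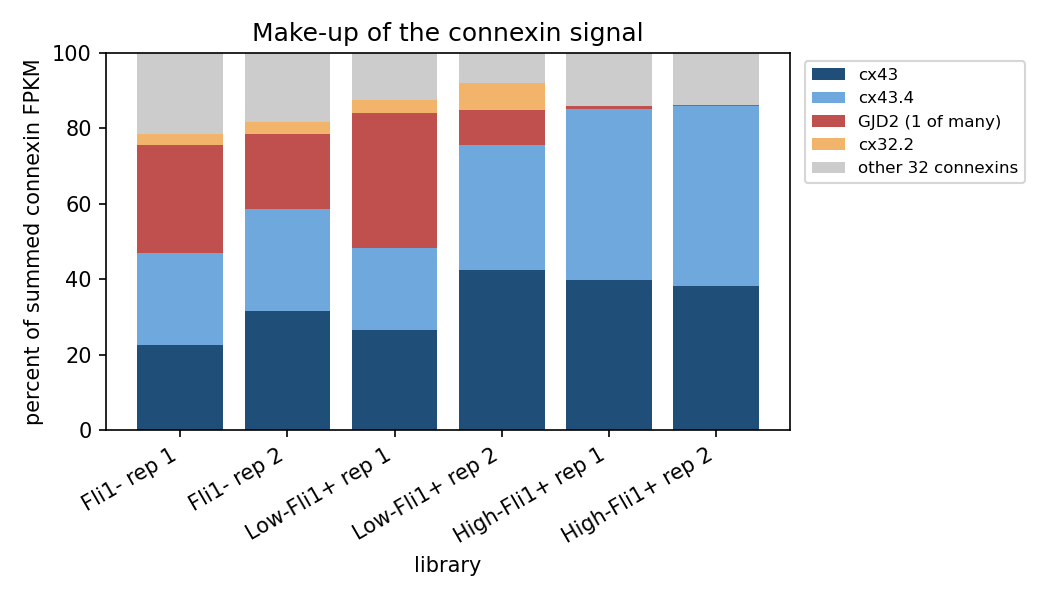
Share of the summed connexin FPKM (percent, y axis) in each of the 6 libraries (x axis). The parts are cx43, cx43.4, GJD2 (1 of many), cx32.2 and the other 32 connexins of the name rule. Each bar is 1 library and adds up to the FPKM of these 36 genes. GJD2 (1 of many) took 28.83% and 19.80% in Fli1- and under 1% in both High-Fli1+ libraries.

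Of the 36 connexins, 32 were above 0 in at least 1 library and 5 were above 0 in all 6: cx43, cx43.4, GJD2 (1 of many), GJC1 and cx41.8. Only cx43, cx43.4, GJD2 (1 of many) and cx32.2 reached a mean of 10 FPKM in any population. Connexins above 0 numbered 25 and 25 in the Fli1- libraries, 11 and 10 in the Low-Fli1+ pair and 19 and 22 in the High-Fli1+ pair. The Low-Fli1+ libraries thus listed the fewest, and they were also the libraries with the most genes at 0 in all, 14082 and 12575, against 8683 and 8451 in Fli1- and 11054 and 11457 in High-Fli1+. In both Low-Fli1+ libraries 22 of the 36 connexins, or 61.1%, were listed at 0, beside 38.2% of all genes. In both High-Fli1+ libraries 13 connexins, 36.1%, were listed at 0 beside 32.5% of all genes, and in both Fli1- libraries 9 connexins, 25%, beside 24.6%. The part of the higher floor of values in the Low-Fli1+ libraries was not tested.

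**Figure D2:**
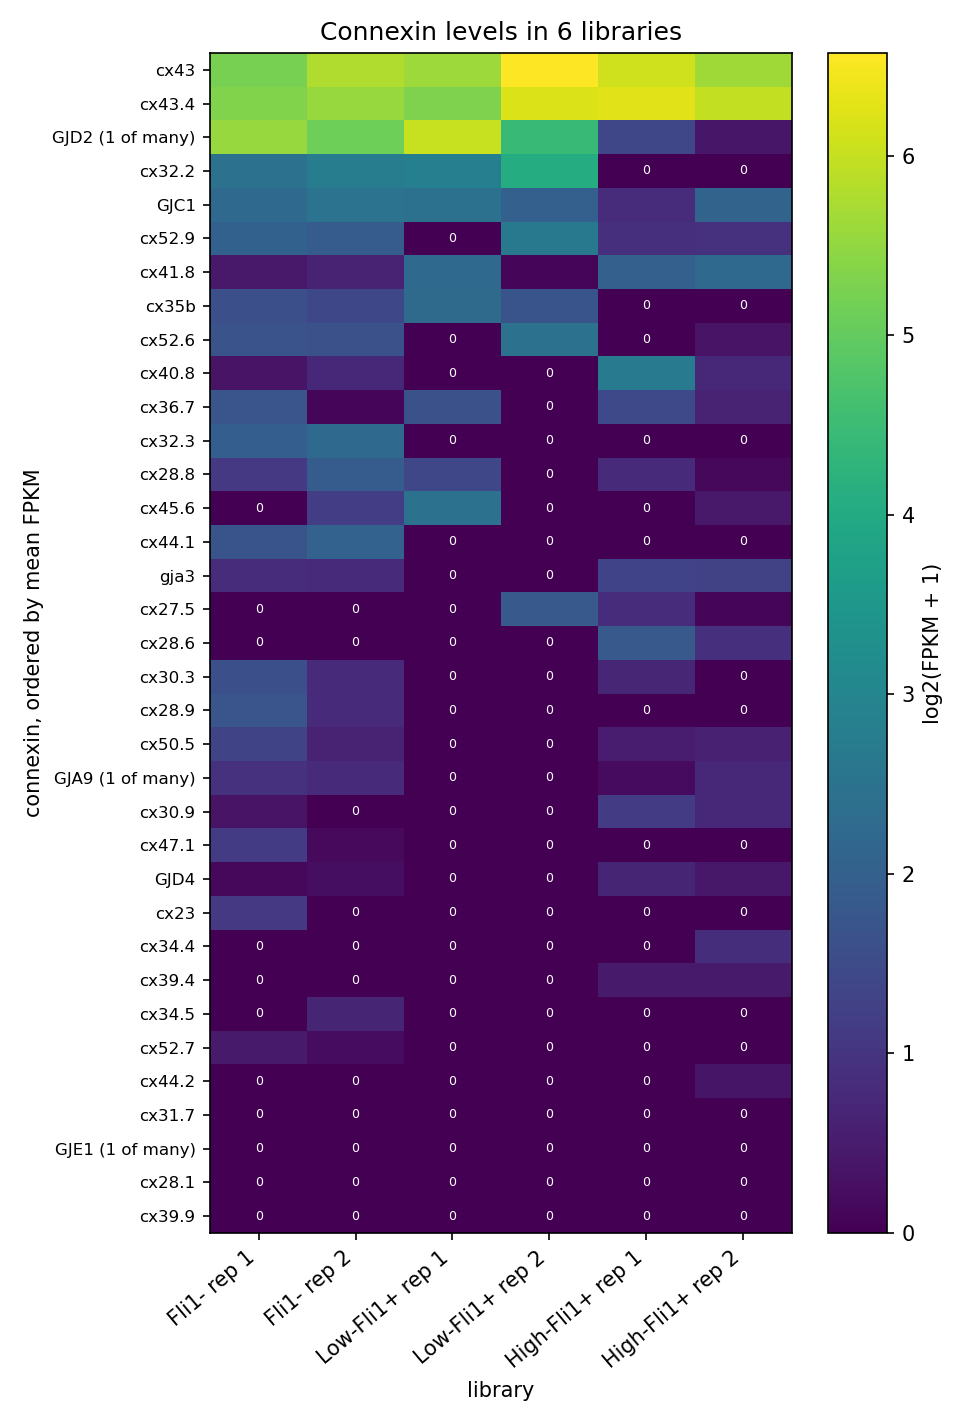
Level of 35 of the 36 connexins (rows) in the 6 libraries (columns) as log2(FPKM + 1) on the colour scale, with values listed at 0 marked. cx43 and cx43.4 are strong in every library, GJD2 (1 of many) is weak in the High-Fli1+ libraries, and many of the rows are at 0 in both Low-Fli1+ libraries.

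The populations were compared with a linear model in limma on log2(FPKM + 1), fitted to all 19237 genes with a mean of at least 0.5 FPKM. The threshold for a call was 0.05 on the p-value after Benjamini-Hochberg adjustment over all of these genes. Of the connexins, 22 passed the filter on low values. Fold changes below are on the log2(FPKM + 1) scale, which understates the change of low genes. In High-Fli1+ against Fli1- cells, 4 of the 22 tested connexins fell and 0 rose, where 11.5% of all genes tested fell and 5.79% rose. At an unadjusted p under 0.05, 1 connexin was higher and 6 were lower. The share of all genes at that level was not computed, here or for the counts below, so such counts are descriptions only. The 4 that fell, 18.2% of those tested, were GJD2 (1 of many), cx32.2, cx32.3 and cx44.1. The last 2 passed the filter through their Fli1- values alone, so the count supports nothing about the family. The median difference of the 22 was -0.64, beside -0.35 over all genes tested, and -0.053 beside 0.014 after quantile normalization.

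In Low-Fli1+ against Fli1- cells limma called 0 connexins in either direction, where 2.14% of all genes tested rose and 1.1% fell, and at an unadjusted p under 0.05 it gave 0 higher and 3 lower. The median difference of the 22 was -0.28, beside -0.21 over all genes, and 0.020 beside -0.059 after quantile normalization. In High-Fli1+ against Low-Fli1+ cells 2 connexins fell, GJD2 (1 of many) and cx32.2, and 0 rose, where 4.15% of all genes fell and 1.22% rose. At an unadjusted p under 0.05, 2 were higher and 3 were lower. The median over the 22 was 0, beside -0.13 over all genes, and -0.13 beside 0.021 after quantile normalization. The F test over the 3 populations called the same 4 connexins, 18.2% of those tested, where it called 14.6% of all genes. The 3 comparisons share libraries and are not independent of each other.

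**Figure D3:**
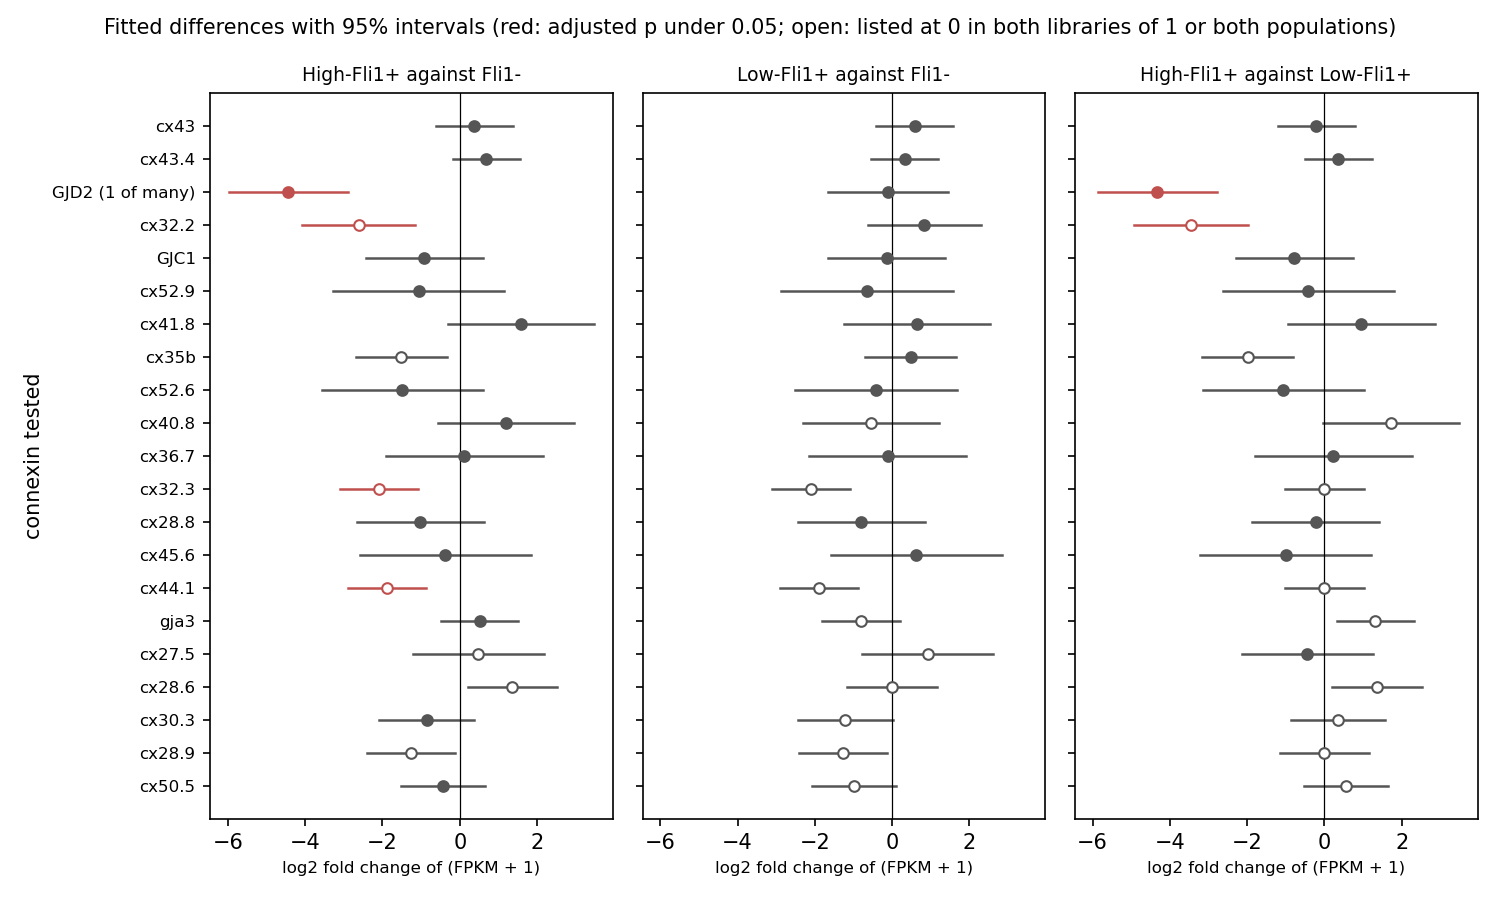
Difference of 21 of the 22 tested connexins (rows) as log2 fold change of (FPKM + 1) on the x axis, with 95% intervals from limma, in the 3 comparisons (panels); red marks an adjusted p under 0.05, and open points mark genes listed at 0 in both libraries of at least 1 population compared, whose differences depend on the pseudocount. The red points are GJD2 (1 of many) and cx32.2 in both comparisons with High-Fli1+ cells, and cx32.3 and cx44.1 against Fli1- cells; none lies above 0.

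The highest mean over all 6 libraries was that of cx43 (gja1b in RefSeq), 58.1 FPKM, beside 55.8 for cx43.4. In some libraries GJD2 (1 of many) or cx43.4 was higher. cx43 is the zebrafish relative of the mammalian connexin of heart, bone and many other tissues. In fish, its loss shortens the bony rays of the fin. It had 36.3 and 53.9 FPKM in the Fli1- libraries, 47.6 and 94.1 in the Low-Fli1+ pair and 67.7 and 49.1 in the High-Fli1+ pair. The 3 ranges overlapped, and the highest value was Low-Fli1+ replicate 2. High-Fli1+ differed from Fli1- by 0.37 ± 0.41 (log2, SE; 95% interval -0.62 to 1.37; limma adjusted p = 0.597). Low-Fli1+ differed from Fli1- by 0.59 (-0.41 to 1.59; adjusted p = 0.475), and High-Fli1+ from Low-Fli1+ by -0.21 (-1.21 to 0.79; adjusted p = 0.792). The sign of that last difference turned without Low-Fli1+ replicate 2, to 0.27, without High-Fli1+ replicate 2, to 0.015, and under median-ratio scaling, to 0.14. These intervals leave room for changes of more than 1 log2 unit.

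cx43.4 (gjc4b), a gamma connexin of the early embryo needed for left-right patterning, stood at the same height. It had 38.8 and 46.1 FPKM in the Fli1- libraries, 38.7 and 73.3 in the Low-Fli1+ pair and 76.6 and 61.5 in the High-Fli1+ pair. Both High-Fli1+ values lay above both Fli1- values, while the Low-Fli1+ libraries spanned nearly the whole range. The difference of High-Fli1+ from Fli1- was 0.68 ± 0.35 (log2, SE; 95% interval -0.18 to 1.55) and was not called (limma adjusted p = 0.250). Low-Fli1+ differed from Fli1- by 0.33 (-0.54 to 1.19; adjusted p = 0.656), with -0.13 without Low-Fli1+ replicate 2. High-Fli1+ differed from Low-Fli1+ by 0.36 (-0.51 to 1.23; adjusted p = 0.577), with -0.094 without Low-Fli1+ replicate 1. The ratio of cx43 to cx43.4 was between 0.799 and 1.28 in all 6 libraries, so neither gene led throughout.

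The connexins of electrical synapses had another pattern. GJD2 names the gene of the neuronal connexin that couples neurons and retinal cells directly, and the table holds it as GJD2 (1 of many) beside its relative cx35b (gjd2b). GJD2 (1 of many) had 46.24 and 33.78 FPKM in the Fli1- libraries, 64.1 and 20.6 in the Low-Fli1+ pair and 1.66 and 0.326 in the High-Fli1+ pair. The High-Fli1+ values lay far below all 4 others, and the Low-Fli1+ libraries lay on either side of the Fli1- pair. It fell by 4.43 ± 0.63 (log2, SE) in High-Fli1+ against Fli1- cells, a 21.6-fold difference of FPKM + 1 (95% interval -5.98 to -2.88; limma adjusted p = 0.00962). Against Low-Fli1+ cells it fell by 4.32 ± 0.63 (95% interval -5.87 to -2.77; adjusted p = 0.0256). Low-Fli1+ did not pass the test against Fli1- cells, at -0.11 (adjusted p = 0.944), a value whose sign turned without Fli1- replicate 1, to 0.11, and without Low-Fli1+ replicate 2, to 0.68. The F test gave an adjusted p of 0.0162.

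Leaving out a library also changed how many genes were called at all. In High-Fli1+ against Fli1- cells 201 to 4906 of all genes were called in such fits, beside 3316 with all libraries. In High-Fli1+ against Low-Fli1+ cells 2262 were called without Low-Fli1+ replicate 2 and 0 without any other library, beside 1033, so no gene kept a call there. The call for GJD2 (1 of many) against Fli1- cells did not survive leaving out Fli1- replicate 1 (limma adjusted p = 0.145) or 2 (0.114), nor High-Fli1+ replicate 1 (0.0645) or 2 (0.0889). It held without either Low-Fli1+ library (0.0124 and 0.0121) and under all 9 other settings tried (0.00496 to 0.0181), and the difference stayed between -4.93 and -3.93 whichever library was left out. The call against Low-Fli1+ cells held without Low-Fli1+ replicate 2 (0.0328) and was lost without each other library, that is without Fli1- replicate 1 (0.150) or 2 (0.151), Low-Fli1+ replicate 1 (0.0606), or High-Fli1+ replicate 1 (0.109) or 2 (0.163). With only those 2 populations in the fit it was not called either (0.155), where 0 of all genes were. The difference stayed between -5.11 and -3.53 whichever library was left out.

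cx35b lay below GJD2 (1 of many) in every library. It had 2.02 and 1.69 FPKM in Fli1- and 3.87 and 2.24 in Low-Fli1+ libraries, and was listed at 0 in both High-Fli1+ libraries. The High-Fli1+ values lay below all others, without passing the test against Fli1- (limma adjusted p = 0.0870) or Low-Fli1+ cells (adjusted p = 0.0744). The first of these passed without Low-Fli1+ replicate 1 or replicate 2, with a pseudocount of 0.1 (0.0363) and with no variance trend (0.0469). It also passed with only those 2 populations in the fit (0.0211), where 4968 of all genes were called, beside 3316. The second passed without Low-Fli1+ replicate 2 (0.0390) and with no variance trend (0.0456). As the 2 genes are close relatives, the authors' counting may have divided reads between them, which was not tested. The name rule missed a delta connexin, zgc:194261 (gjd1a in RefSeq). It had 23.7 and 21.7 FPKM in the Fli1- libraries, 28.84 and 16.61 in the Low-Fli1+ pair and 5.06 and 0.202 in the High-Fli1+ pair. It was called lower in High-Fli1+ against Fli1- cells (-3.14, log2; limma adjusted p = 0.0451). Against Low-Fli1+ cells it was not called (-3.09; adjusted p = 0.0815). Other settings were not examined for this gene.

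Neuronal and retinal RNA was lowest in the High-Fli1+ libraries, as these genes were. The 7 neuronal markers summed to 1318 and 1034 FPKM in the Fli1- libraries, 758 and 481 in the Low-Fli1+ pair and 87.5 and 23.0 in the High-Fli1+ pair, and all 7 fell in High-Fli1+ against Fli1- cells. The 7 retinal markers summed to 383 and 292, 340 and 210, and 19.9 and 6.89 FPKM, and all 7 fell too. Their part in the levels of GJD2 (1 of many) and cx35b was not tested. In these bulk libraries, fewer cells of a type and less RNA per cell cannot be told apart.

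Connexins of retinal horizontal cells, the interneurons that couple widely beneath the photoreceptors, form another neural group. cx52.9 had 3.13 and 2.74 FPKM in the Fli1- libraries, 0 and 5.30 in the Low-Fli1+ pair and 0.861 and 0.898 in the High-Fli1+ pair. cx52.6 had 2.23 and 2.08, 0 and 4.57, and 0 and 0.275 FPKM. In both genes the High-Fli1+ values lay below the Fli1- values and the Low-Fli1+ libraries split between 0 and the highest value of all. cx52.6 did not pass the test of High-Fli1+ against Fli1- cells (limma adjusted p = 0.300). It passed without Low-Fli1+ replicate 1 or 2 and with only those 2 populations in the fit (0.0297). That last fit called 4968 of all genes, beside 3316. The other members of the group, GJA9 (1 of many) and cx52.7, did not pass the filter, and their highest values were 0.910 and 0.379 FPKM, both in Fli1- replicate 1.

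The alpha connexin cx32.2 (gja13.2) had the highest mean over all libraries among the remaining genes. It had 4.52 and 5.83 FPKM in Fli1- and 6.10 and 15.8 in Low-Fli1+ libraries, and was listed at 0 in both High-Fli1+ libraries. The High-Fli1+ libraries lay below all 4 others, and the highest value was Low-Fli1+ replicate 2. limma called it lower in High-Fli1+ cells both against Fli1- (adjusted p = 0.0350) and against Low-Fli1+ cells (adjusted p = 0.0369), while Low-Fli1+ against Fli1- did not pass (0.83, log2; adjusted p = 0.491). The first call ended on leaving out Fli1- replicate 1 (0.190) or 2 (0.205) or High-Fli1+ replicate 1 (0.147) or 2 (0.155), and with a pseudocount of 5 (0.109). The second ended on leaving out either Fli1- library (0.152 for each), Low-Fli1+ replicate 1 (0.0502), or High-Fli1+ replicate 1 (0.154) or 2 (0.174), and also with a pseudocount of 5 (0.0632), with no filter (0.0590) and with only those 2 populations in the fit (0.159). As for GJD2 (1 of many), no gene kept a call in the second comparison in the fits listed here with fewer libraries. The fits with a pseudocount of 5 and with no filter still called 868 and 590 of all genes, beside 1033.

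Its relative cx32.3 (gja13.1) was seen in Fli1- libraries alone. It had 2.89 and 3.70 FPKM there and was listed at 0 in the other 4 libraries. It was called lower in High-Fli1+ cells against Fli1- cells (limma adjusted p = 0.0235), and the like comparison of Low-Fli1+ cells, with the same values, missed the threshold (adjusted p = 0.0583). The spread seen in such a gene comes from the Fli1- pair alone, since the other populations show none. The variance used in its test also draws on genes of like level, through the variance trend. The call was lost without either High-Fli1+ library, and the difference stayed between -2.23 and -1.96 whichever library was left out. cx28.9 (gja12.1) had a like pattern, with 2.32 and 0.740 FPKM in Fli1- libraries and 0 in the rest, and did not pass (adjusted p = 0.124). Of 8 other settings with no single library left out, it passed only with a pseudocount of 0.1 (limma adjusted p = 0.0463). Its difference was -0.80 without Fli1- replicate 1 and -1.73 without Fli1- replicate 2, beside -1.26 with all libraries. Neither cx32.3 nor cx28.9 shows any spread without a Fli1- library, and both passed the filter through their Fli1- values alone. cx34.5 was above 0 in Fli1- replicate 2 alone, at 0.601 FPKM.

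In the RefSeq annotation of the GRCz12tu assembly, used here only for which genes neighbour each other, these 4 genes lie close together and next to cx43. No protein-coding gene separates cx43 from cx32.2, cx28.9 from cx32.3 or cx32.3 from cx34.5, and 2 lie between cx32.2 and cx28.9. The 4 genes together summed to 9.73 and 10.9 FPKM in the Fli1- libraries, 6.10 and 15.8 in the Low-Fli1+ pair and 0 and 0 in the High-Fli1+ pair. cx43 beside them had 67.7 and 49.1 FPKM in the High-Fli1+ libraries, so the neighbours did not share its level there. Neighbouring copies can share reads, and how the authors' counting treated them is not given in the sources used here. RNA of red cells and liver was lowest in the High-Fli1+ libraries as well. The 6 red cell markers summed to 40753 and 31545 FPKM in the Fli1- libraries, 3096 and 4832 in the Low-Fli1+ pair and 66.7 and 54.5 in the High-Fli1+ pair. The 6 liver markers summed to 232 and 327, 26.4 and 11.1, and 10.1 and 4.20 FPKM in that order. Among them ttr went the other way, above 0 only in the High-Fli1+ libraries, at 1.71 and 1.63 FPKM. The 7 epidermal markers were not lowest in the High-Fli1+ libraries. They summed to 565 and 989 FPKM in the Fli1- libraries, 141 and 41.4 in the Low-Fli1+ pair and 278 and 103 in the High-Fli1+ pair. The red cell, liver and epidermal sums were all lower in Low-Fli1+ than in Fli1- libraries. In the Low-Fli1+ libraries cx32.3 was at 0 and cx32.2 was not lower. The part of these tissues in either gene's level was not tested.

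**Figure D4:**
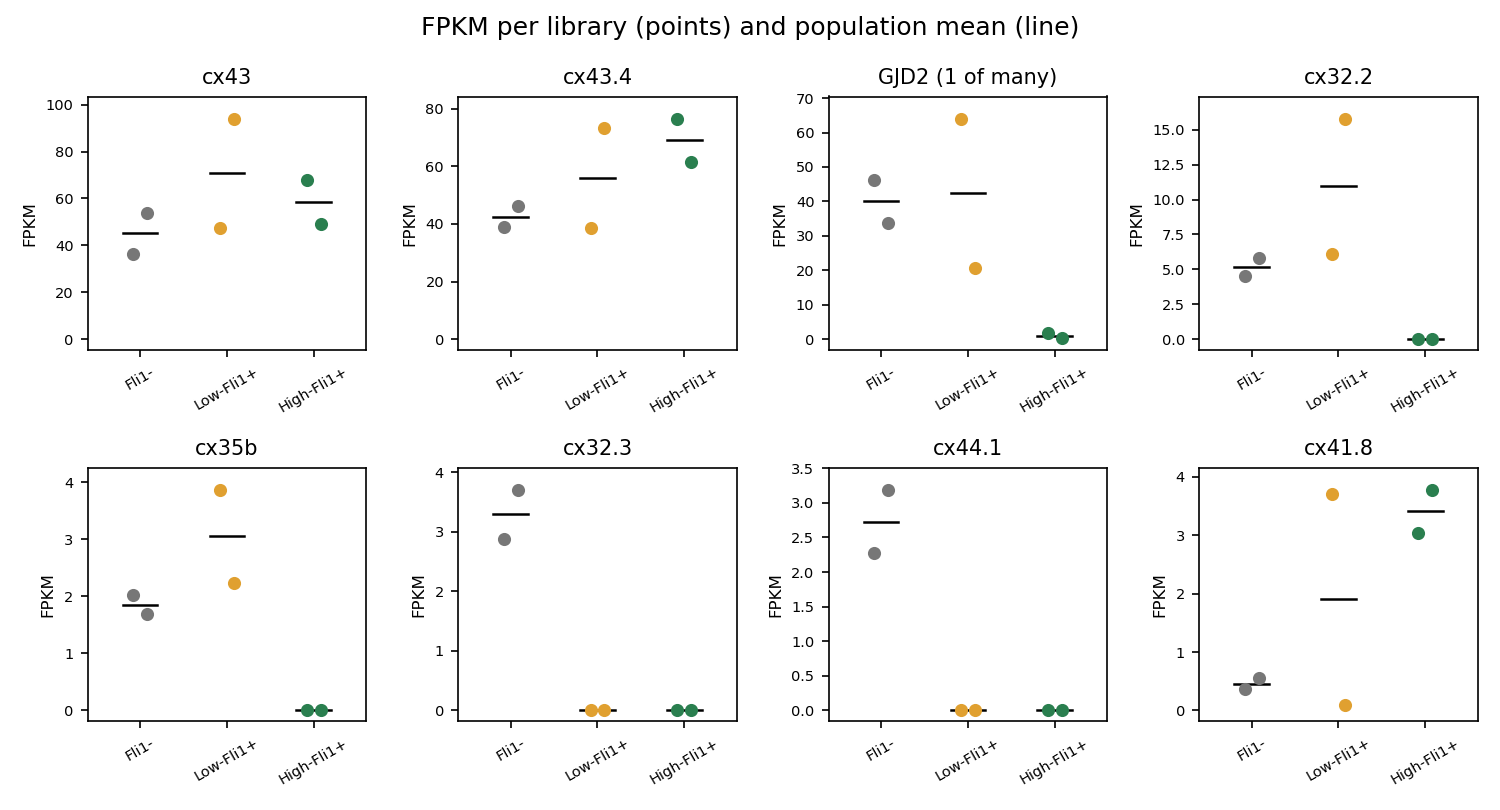
FPKM (y axis, linear, separate scale per gene) of cx43, cx43.4, GJD2 (1 of many), cx32.2, cx35b, cx32.3, cx44.1 and cx41.8 in the 3 populations (x axis); each point is 1 library and each line the mean of a population. The High-Fli1+ points of GJD2 (1 of many) lie at 1.66 and 0.326 FPKM under the 4 others, and those of cx32.2 and cx35b lie at 0, while the points of cx43 overlap between populations.

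Lens connexins join the fibre cells of the lens, which has no blood supply. cx44.1 (gja8b) had 2.27 and 3.19 FPKM in Fli1- libraries and was listed at 0 in the other 4. It was called lower in High-Fli1+ cells against Fli1- cells (limma adjusted p = 0.0312), and Low-Fli1+ against Fli1- missed the threshold (adjusted p = 0.0703). The call was lost without High-Fli1+ replicate 1 (0.0746) or High-Fli1+ replicate 2 (0.0799), and under quantile normalization (0.0859) and the fit with replicate number as a block (0.0628). Its paralog cx50.5 (gja8a) had 1.53 and 0.554, 0 and 0, and 0.421 and 0.523 FPKM, with all Fli1- values above the High-Fli1+ values. gja3 had 0.780 and 0.709 FPKM in the Fli1- libraries, 0 and 0 in the Low-Fli1+ pair and 1.51 and 1.46 in the High-Fli1+ pair. For gja3 the High-Fli1+ pair thus lay above the Fli1- pair instead, with the Low-Fli1+ pair again at 0. No comparison passed, at limma adjusted p = 0.454 for High-Fli1+ against Fli1- and 0.121 against Low-Fli1+ cells. cx23 was above 0 in Fli1- replicate 1 alone (1.14 FPKM), and GJE1 (1 of many) was at 0 in all 6 libraries. The 9 lens markers summed to 137 and 81.9 FPKM in the Fli1- libraries, 17.7 and 21.1 in the Low-Fli1+ pair and 10.04 and 7.64 in the High-Fli1+ pair, with 1, 4 and 4 of them at 0 in both libraries. Of the 6 lens markers tested, 3 fell in High-Fli1+ against Fli1- cells. Their part in the levels of the lens connexins was not tested.

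Among the connexins of pigment cells, heart and vessels, cx41.8 (gja5b) is the leopard gene of the zebrafish stripe pattern and the relative of the mammalian connexin of arterial endothelium. It had 0.360 and 0.561 FPKM in the Fli1- libraries, 3.71 and 0.0908 in the Low-Fli1+ pair and 3.04 and 3.78 in the High-Fli1+ pair. Both High-Fli1+ values lay above both Fli1- values, while 1 Low-Fli1+ library was near the highest value and the other was the lowest of all. The difference of High-Fli1+ from Fli1- was 1.59 ± 0.77 (log2, SE; 95% interval -0.30 to 3.49) and was not called (limma adjusted p = 0.222). It passed without Low-Fli1+ replicate 1 or replicate 2 and with only those 2 populations in the fit (0.0338). That last fit called 4968 of all genes, beside 3316. The call of cx41.8 thus turned on the presence of the Low-Fli1+ pair in the fit, as did many calls over all genes. Against Low-Fli1+ cells it was 0.96 (adjusted p = 0.495), with -0.10 without Low-Fli1+ replicate 2. The pigment cell markers, 9 genes, summed to 15.6 and 13.0 FPKM in the Fli1- libraries, 71.0 and 79.7 in the Low-Fli1+ pair and 41.1 and 32.6 in the High-Fli1+ pair. sox10, which other neural crest cells also express, held 29.6 and 25.6 FPKM of the High-Fli1+ sums, and dct, mitfa and pnp4a were listed at 0 in both of those libraries. The endothelial markers, given above, were highest in High-Fli1+ libraries, and their part in the level of cx41.8 was not tested.

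cx39.4, the luchs gene of the same stripe pattern, did not pass the filter and was above 0 only in the High-Fli1+ libraries, at 0.383 and 0.394 FPKM. cx40.8, an alpha connexin related to cx43, had 0.269 and 0.662 FPKM in the Fli1- libraries, 0 and 0 in the Low-Fli1+ pair and 5.56 and 0.675 in the High-Fli1+ pair. Its high value rested on High-Fli1+ replicate 1, and the difference from Fli1- did not pass (1.19, log2; limma adjusted p = 0.322). GJC1, known from the mouse as the connexin of the early heart and of vessel walls, had 3.74 and 4.72, 4.59 and 3.02, and 0.783 and 3.29 FPKM, with its lowest value in High-Fli1+ replicate 1 (High-Fli1+ against Fli1- -0.91, log2; adjusted p = 0.375). cx36.7, which the zebrafish heart needs to contract in order, had 2.33 and 0.0767, 2.07 and 0, and 1.71 and 0.559 FPKM, so replicates differed more than populations. cx45.6 (gja5a), the other relative of the mammalian arterial connexin, had 0 and 1.28, 4.45 and 0, and 0 and 0.357 FPKM. The 6 heart markers were nearly absent, summing to at most 8.94 FPKM in any library.

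The remaining connexins were low. Beta connexins are a family of skin, ear and other epithelia. Among them cx28.6 (gjb9a) was above 0 only in the High-Fli1+ libraries, at 2.59 and 0.845 FPKM. It thus passed the filter through that pair alone. It did not pass the test against Fli1- cells (limma adjusted p = 0.108), except with a pseudocount of 0.1 (0.0416). Its difference depends on that choice, at 1.36 with a pseudocount of 1 and 3.99 with 0.1. cx30.3 (gjb8) had 2.05 and 0.746, 0 and 0, and 0.634 and 0 FPKM. cx28.8 (gjb7) had 1.12 and 2.76, 1.65 and 0, and 0.759 and 0.0945 FPKM. None of the 5 beta connexins tested passed in any comparison. cx27.5 (gjb1a), a relative of the mammalian connexin of liver and peripheral myelin, was above 0 in Low-Fli1+ replicate 2 (2.58 FPKM) and in the High-Fli1+ libraries (0.770 and 0.0893). cx30.9, cx34.4, cx44.2 and GJD4 did not pass the filter, and each had its highest value in a High-Fli1+ library, none above 1.19 FPKM. cx47.1, from the family of the mammalian oligodendrocyte connexin, did not pass either and was above 0 only in the Fli1- libraries, at 1.24 and 0.122 FPKM. cx31.7, cx28.1 and cx39.9, with GJE1 (1 of many), were at 0 in all 6 libraries. A value of 0 here is a listing, not proof that the gene was silent.

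Proteins that hold, traffic or act beside gap junctions were read from a list of 29 genes, all of which were tested. In High-Fli1+ against Fli1- cells 2 of them rose (6.90%) and 5 fell (17.2%), where 5.79% of all genes tested rose and 11.5% fell, and their median difference was -0.14, beside -0.35 over all genes. In Low-Fli1+ against Fli1- cells 2 rose and 0 fell, where 2.14% of all genes rose and 1.1% fell. In High-Fli1+ against Low-Fli1+ cells 0 rose and 1 fell (3.45%), where 1.22% of all genes rose and 4.15% fell. At an unadjusted p under 0.05 limma gave 4 higher and 2 lower in the former and 2 higher and 9 lower in the latter. The medians were 0.18 and -0.30, beside -0.21 and -0.13 over all genes.

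The genes that rose were hapln1a and sema3d, which have been placed downstream of cx43 in the growing zebrafish fin. hapln1a, a link protein that binds hyaluronan, had 44.7 and 66.1 FPKM in the Fli1- libraries, 153 and 219 in the Low-Fli1+ pair and 508 and 472 in the High-Fli1+ pair. sema3d, a secreted guidance cue, had 2.00 and 3.89, 17.7 and 30.5, and 49.5 and 64.6 FPKM. In both genes the populations did not overlap, and the order was Fli1-, Low-Fli1+, High-Fli1+. Between High-Fli1+ and Fli1- cells hapln1a rose 8.86-fold (3.15 ± 0.30, log2 of FPKM + 1, SE; limma adjusted p = 0.00394). sema3d rose 15.0-fold (3.91 ± 0.42; adjusted p = 0.00487). cx43 itself, given above, did not pass in the same comparison.

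In Low-Fli1+ against Fli1- cells the differences were 1.74 for hapln1a (limma adjusted p = 0.0467) and 2.66 for sema3d (adjusted p = 0.0365), and both were lost without any 1 of the 6 libraries (0.0649 to 0.207 and 0.0607 to 0.169). In that comparison 0 of all genes were called without Low-Fli1+ replicate 1 or without either High-Fli1+ library. The differences stayed at 1.46 to 2.01 for hapln1a and 2.29 to 3.04 for sema3d. Of 9 other settings, 5 kept the call for hapln1a and 8 that for sema3d. In High-Fli1+ against Fli1- cells both calls were lost without Fli1- replicate 1 (0.05002 and 0.0614), High-Fli1+ replicate 1 (0.0528 and 0.0557) and High-Fli1+ replicate 2 (0.0571 and 0.0668), and held without the others; the differences stayed at 2.87 to 3.42 and 3.56 to 4.26. Cartilage RNA, given above, rose in the same order of populations. The 8 mesenchyme markers summed to 193 and 358 FPKM in the Fli1- libraries, 1801 and 2787 in the Low-Fli1+ pair and 2101 and 1745 in the High-Fli1+ pair. These sums were lowest in Fli1- and overlapped between Low-Fli1+ and High-Fli1+ libraries. Their largest part was col1a1a, with 1168 and 1979 FPKM in the Low-Fli1+ pair and 989 and 783 in the High-Fli1+ pair. col1a2 overlapped between these 2 populations. The other markers, pdgfra, prrx1a, prrx1b, twist1a, twist2 and foxc1a, were each higher in both High-Fli1+ than in both Low-Fli1+ libraries. The part of either tissue in the result was not tested. The 2 other genes of that group, esco2 and smc3, which belong to the cohesin machinery, did not pass in any comparison.

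Of the 5 zonula occludens scaffolds, which bind connexin tails at the membrane, tjp2a, tjp2b and tjp3 fell in High-Fli1+ against Fli1- cells and tjp1a and tjp1b did not pass. tjp2a had 13.4 and 17.9 FPKM in the Fli1- libraries, 8.49 and 9.20 in the Low-Fli1+ pair and 2.86 and 3.20 in the High-Fli1+ pair (-2.03 ± 0.38; limma adjusted p = 0.0200). tjp2b had 25.8 and 20.4, 14.3 and 14.2, and 7.80 and 6.79 FPKM (-1.53; adjusted p = 0.0239). For both genes the populations did not overlap. tjp3 had 23.3 and 36.8, 5.12 and 2.55, and 6.21 and 1.16 FPKM (-2.94; adjusted p = 0.0379). Epidermal RNA, which comes from a tissue rich in such scaffolds, summed over its 7 markers to 565 and 989, 141 and 41.4, and 278 and 103 FPKM, and its part in the result was not tested. The calls for tjp2a and tjp2b were lost without any 1 of the 4 libraries compared (0.0865 to 0.140 and 0.0805 to 0.135), and that for tjp3 without each of those and without Low-Fli1+ replicate 1 (0.0506 to 0.280). Under 9 other settings the calls for tjp2a and tjp2b all held and that for tjp3 held in 7.

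Among the other partners, dbn1, the actin-binding protein drebrin, had 130 and 137 FPKM in the Fli1- libraries, 131 and 75.3 in the Low-Fli1+ pair and 52.3 and 54.4 in the High-Fli1+ pair (-1.31 in High-Fli1+ against Fli1- cells; limma adjusted p = 0.0375). panx1b, a pannexin, which forms channels in a single membrane, had 4.51 and 3.07 and then 2.83 and 1.94 FPKM, was listed at 0 in both High-Fli1+ libraries, and was called lower there than in Fli1- cells (adjusted p = 0.0311). For both genes the High-Fli1+ libraries were the lowest. Each of these calls was lost without any 1 of the 4 libraries compared (0.162 to 0.216 for dbn1 and 0.0692 to 0.118 for panx1b), and of 9 other settings 6 kept that for dbn1 and 7 that for panx1b. cnsta, whose human relative consortin carries connexins from the Golgi to the membrane, was the gene called in High-Fli1+ against Low-Fli1+ cells. It had 13.4 and 9.55, 15.5 and 19.3, and 3.85 and 3.76 FPKM (-1.93; adjusted p = 0.0450), and its call was lost without any 1 of the 6 libraries (0.0551 to 0.169) and under 6 of 9 other settings (up to 0.152). Its difference stayed at -2.08 to -1.78 whichever library was left out, in fits where 0 of all genes were called except without Low-Fli1+ replicate 2. The neuronal markers, given above, were lowest in the High-Fli1+ libraries as well, and their part in the levels of dbn1 and cnsta was not tested. None of the 2 ubiquitin ligases, 5 kinases and regulators of connexin tails or 3 genes tied to connexins in stripe formation passed in any comparison.

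**Figure D5:**
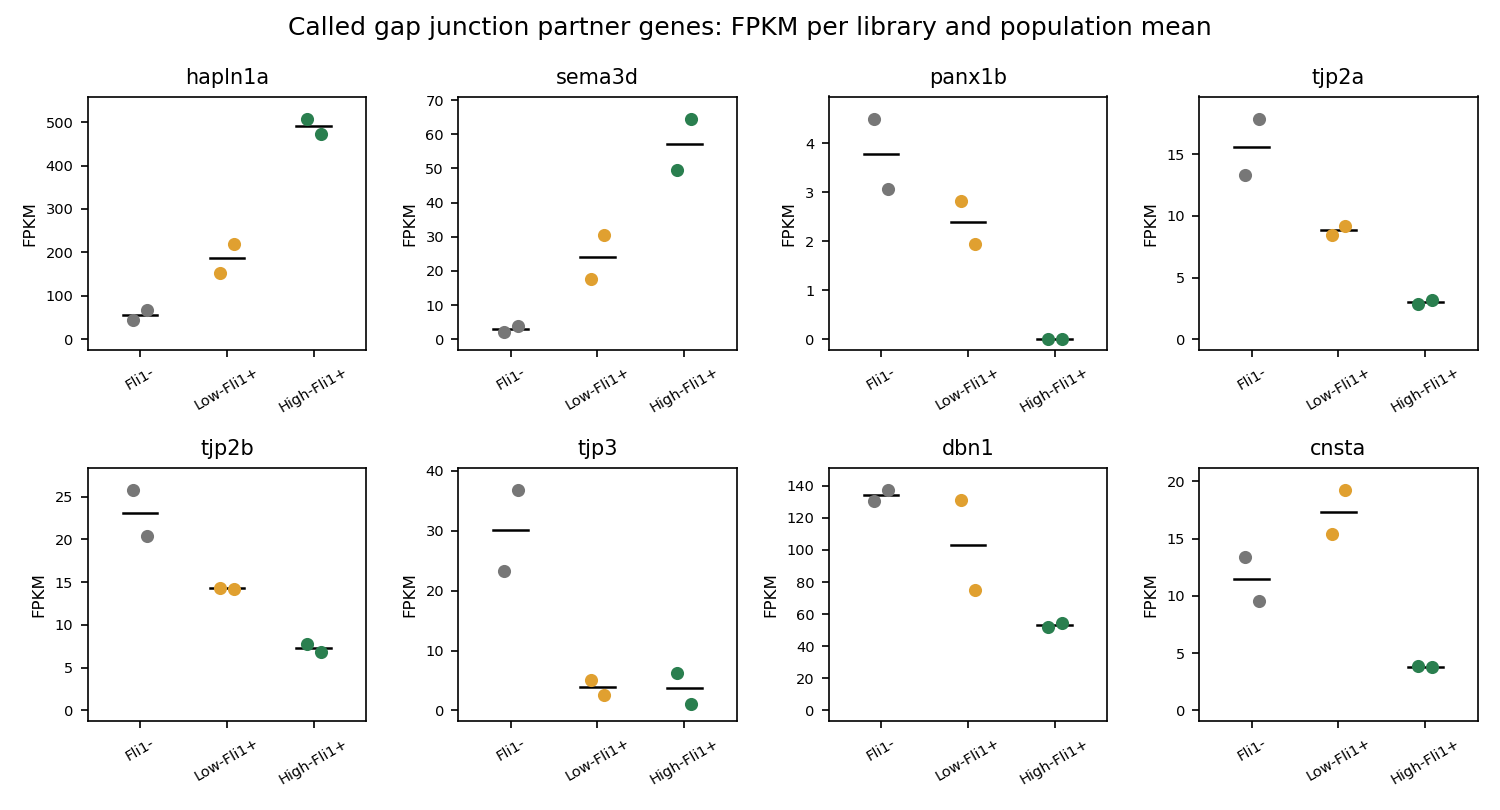
FPKM (y axis, linear, separate scale per gene) of the 8 partner genes called in any comparison, hapln1a, sema3d, panx1b, tjp2a, tjp2b, tjp3, dbn1 and cnsta, in the 3 populations (x axis); each point is 1 library and each line the mean of a population. hapln1a and sema3d climb from Fli1- to High-Fli1+ libraries, with hapln1a at 508 and 472 FPKM in the latter, and the other 6 are lower in High-Fli1+ than in Fli1- libraries.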

How the data were processed

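RNA-seq libraries of 3 zebrafish cell populations, 2 each, were made from 100 ng of total RNA after poly-A enrichment, per the labels' protocols. The deposited values are FPKM per gene name, which the authors computed before depositing the table. The aligner, gene annotation and genome build are not given in the sources used here. Of 29144 entries, 18 named by a calendar date were left out. FPKM carry no counts, so depth and counting error are unknown.

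Members were matched by name, and RefSeq symbols (GRCz12tu) were found for 31 of the 36 connexins. Members and gene lists were chosen with earlier results of these data known. Values in every library are printed for connexins called in a comparison or with a population mean of at least 10 FPKM, and for other members where they help describe a group. The values of 1 connexin are not reported here; it stays in the counts, sums and medians over the family.

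log2(FPKM + 1) was fitted by population in limma 3.58.1 (R 4.3.3), with moderated variances following a trend with level, for 19237 genes with a mean of at least 0.5 FPKM; 9889 were removed. The fit had 3 residual and 2.89 prior degrees of freedom. All adjusted p-values are limma's, by Benjamini-Hochberg over those genes. Two-sided tests were used. An exact permutation test of 2 libraries against 2 cannot go below p = 0.333. Alternatives were 2 pseudocounts, 2 filters, 2 scalings, no variance trend, only the populations compared, a replicate block and leaving out each library.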

Additional observations from a re-analysis of the deposited data

How the results depend on the processing

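Counts of called connexins moved with several settings. In High-Fli1+ against Fli1- cells 1 connexin rose with a pseudocount of 0.1 and 1 with only those populations in the fit. Of all genes, 1050 and 1574 rose there, beside 1113 in the fit used above. In each of these fits 6 connexins fell, and 5 fell without a variance trend, beside 4. Of all genes 2070, 3394 and 2193 then fell, beside 2203. With a pseudocount of 5 and under quantile normalization 3 connexins fell, where 2127 and 1719 of all genes fell. With a filter at a mean of 2 FPKM, which left 7 connexins to test, 2 fell. Of all genes 2050 then fell, beside 2203. In Low-Fli1+ against Fli1- cells 2 fell with a pseudocount of 0.1, 2 with no filter and 2 without a variance trend. They were cx32.3 and cx44.1 each time, both listed at 0 in the Low-Fli1+ libraries. Of all genes 300, 367 and 401 fell in these fits, beside 211. In High-Fli1+ against Low-Fli1+ cells 1 fell with a pseudocount of 5, 1 with no filter and 0 with only those populations in the fit. Of all genes 637, 449 and 0 then fell, beside 799. Without a variance trend 3 connexins fell, beside 2 in the fit used above, where 749 of all genes fell. The fit with no filter tested 23112 genes. The F test called 5 connexins with a pseudocount of 0.1 and 5 without a variance trend, beside 4 in the fit used above. It called 2 with a pseudocount of 5, 2 with the filter at 2 FPKM, 2 under quantile normalization and 2 with the replicate block. Its calls over all genes were not counted in these fits, so the counts are descriptions only. Apart from genes left out by the filter, the causes were not tested.

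Leaving out each library in turn gave 0 to 1 connexins higher and 0 to 6 lower in High-Fli1+ against Fli1- cells, 0 to 4 lower in Low-Fli1+ against Fli1-, 0 to 3 lower in High-Fli1+ against Low-Fli1+ and 0 to 8 by the F test. Calls over all genes then moved from 201 to 4906, 0 to 797 and 0 to 2262 in the 3 comparisons, beside 3316, 622 and 1033. A lone library was then assumed to vary like the others. Calls of the F test over all genes were not counted in these fits. Some small differences changed sign when a library was left out. Those of cx43 in High-Fli1+ against Low-Fli1+ ranged from -0.70 to 0.27 (0.015 without High-Fli1+ replicate 2), with 0.14 under median-ratio scaling. Those of cx43.4 ranged from -0.094 to 0.81 in that comparison and from -0.13 to 0.78 in Low-Fli1+ against Fli1-. Those of GJD2 (1 of many) in Low-Fli1+ against Fli1- ranged from -0.90 to 0.68 (0.11 without Fli1- replicate 1). Those of cx41.8 in High-Fli1+ against Low-Fli1+ ranged from -0.10 to 2.01.

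Same-numbered libraries deviated together only weakly (correlations 0.096, 0.081 and 0.121), and the fit used above did not treat the numbers as pairs. What a shared number means is not given in the labels. With the replicate block 3 connexins fell in High-Fli1+ against Fli1- cells, 0 in Low-Fli1+ against Fli1- and 2 in High-Fli1+ against Low-Fli1+. Of all genes 1975, 73 and 682 fell there, beside 2203, 211 and 799 in the fit used above. Over all genes, 33.6% of calls in High-Fli1+ against Fli1- were higher, beside 49.2% with quantile normalization and 43.2% with median-ratio scaling, and 22.7% in High-Fli1+ against Low-Fli1+, beside 32.23% and 40.5%. These scalings moved the median of all genes in High-Fli1+ against Fli1- from -0.35 to 0.014 and -0.10.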

Other observations

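Some neighbouring connexins differed in level. cx41.8 and cx44.1 have no protein-coding gene between them in RefSeq; cx41.8 had 3.04 and 3.78 FPKM in High-Fli1+ libraries, where cx44.1 was listed at 0, while cx44.1 had 2.27 and 3.19 in Fli1-, where cx41.8 had 0.360 and 0.561. cx50.5 and cx45.6, also adjacent, were both low, with highest values of 1.53 FPKM in Fli1- replicate 1 and 4.45 FPKM in Low-Fli1+ replicate 1. These are values of 2 libraries per population, not tests of shared control. The connexin si:dkey-91f15.1 (gjc4a.2), missed by the name rule, was above 0 in Fli1- replicate 2 (0.168 FPKM) and High-Fli1+ replicate 2 (0.305 FPKM) alone.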
